A study of Mus musculus with 42 samples.

Results

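The genes described are 10 enzymes of glycolysis, lactate, glycogen and glycerol phosphate metabolism: *Hk2*, *Pfkm*, *Pgam2*, *Eno3*, *Ldha*, *Ldhb*, *Gys1*, *Pygm*, *Fbp2* and *Gpd1*. Members were the probes that carried one of these symbols on a one-colour mouse expression array, which gave 12 probes for 10 of the 21186 genes with a symbol. *Ldha* and *Gpd1* had a pair of probes each, and all 12 probes were well above background and unsaturated on all 42 arrays. Aorta and skeletal muscle were each taken from 7 groups of male mice, aged 18 to 20 weeks by the study's methods where the animals are introduced, with 3 arrays per group and tissue. Whether arrays of the 2 tissues with the same number came from one mouse is not stated, and fits over both tissues treated all 42 arrays as independent. The healthy group (G) was C57BL/6 given saline, and the diabetic group (A) was KK/Ay, an obese diabetic strain that carries the yellow agouti allele, given saline. The macroangiopathy group (C) was KK/Ay on a high-fat diet with L-NAME, an inhibitor of nitric oxide synthases, in the drinking water for 8 weeks, and was given saline. The other 4 groups had this same diet and L-NAME and received SHENQI (B), yangyinyiqi (D) or huoxue (E), which are herbal preparations, or rosiglitazone (F), a PPARγ agonist, by daily gavage for 8 weeks. Diabetic or macroangiopathy mice against healthy mice therefore differed in strain as well as in disease, and no group separates the diet from L-NAME. The labels give no more than a replicate number, so the p-values measure the spread between these samples.

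In skeletal muscle, glucose is trapped by hexokinase, committed to glycolysis by phosphofructokinase and carried through phosphoglycerate mutase and enolase to pyruvate, which lactate dehydrogenase reduces to lactate. Muscle also holds glycogen, built by glycogen synthase and released by glycogen phosphorylase for contraction. Fast-twitch fibres rely most on this route, and their forms of several of these enzymes are encoded by genes separate from those used in other tissues. Adipocytes use glycolytic carbon differently, with glycerol-3-phosphate dehydrogenase supplying the backbone of triglycerides.

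Sequences upstream of 3 members are shown because *Pgam2* and *Ldha* had the smallest adjusted p of the members against healthy muscle and *Pygm* varied with skeletal muscle markers across the aortas. Each holds the 250 bases before a transcript start in RefSeq (GRCm38.p6), 5′ to 3′ on the gene's strand, with searched motifs in capitals. The regions are chr11:5803797-5804046 on the minus strand for *Pgam2*, chr19:6384158-6384407 on the plus strand for *Pygm* and chr7:46845554-46845803 on the plus strand for *Ldha*.
Pgam2: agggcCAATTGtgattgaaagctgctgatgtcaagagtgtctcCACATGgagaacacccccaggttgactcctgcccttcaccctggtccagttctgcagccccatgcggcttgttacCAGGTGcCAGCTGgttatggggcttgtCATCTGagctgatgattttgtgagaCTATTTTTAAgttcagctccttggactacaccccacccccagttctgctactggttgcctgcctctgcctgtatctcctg
Pygm: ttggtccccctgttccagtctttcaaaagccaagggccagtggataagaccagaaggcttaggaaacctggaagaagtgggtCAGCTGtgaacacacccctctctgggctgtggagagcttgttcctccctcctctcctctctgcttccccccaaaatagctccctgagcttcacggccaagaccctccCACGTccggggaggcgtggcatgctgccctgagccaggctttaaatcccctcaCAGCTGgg
Ldha: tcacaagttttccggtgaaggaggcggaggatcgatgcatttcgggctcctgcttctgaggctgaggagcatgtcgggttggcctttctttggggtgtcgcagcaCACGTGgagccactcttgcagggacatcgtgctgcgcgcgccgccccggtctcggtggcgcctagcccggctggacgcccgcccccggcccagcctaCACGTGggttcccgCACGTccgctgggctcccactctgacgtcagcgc
The motifs searched on both strands were the E-box CANNTG, which myogenic and other basic helix-loop-helix factors bind, the MEF2 motif by name, ACGTG, the core of the hypoxia response element, and CACGTG, which is an E-box and holds ACGTG as well. The *Pgam2* window held 5 E-boxes and a MEF2 match 80 to 71 bases before the start. The *Pygm* window held 2 E-boxes and an ACGTG, and that of *Ldha* held 2 copies of CACGTG, at 145 to 140 and 48 to 43 bases before the start, and a further ACGTG at 34 to 30. RefSeq entries were matched for 9 of the 10 members. A second *Ldha* entry, not shown, held 2 E-boxes and 0 ACGTG. *Pfkm* had 4 entries, of which entries 2 and 3 overlapped, so the 13 member windows are not all separate promoters. Among 32851 mouse promoter windows of this length, 66.2% held an E-box, 2.92% the MEF2 motif, 16.6% ACGTG and 6.02% CACGTG, against 10, 1, 6 and 3 of 13 member windows.

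Healthy muscle was first set against healthy aorta, which checks the tissue labels and gives the level from which each member started. Values are log2 intensities after quantile normalisation, and a difference was called when the adjusted p of limma, corrected over all genes tested, was under 0.05. *Pfkm*, the muscle phosphofructokinase, read 16.28, 17.19 and 15.49 in the healthy muscles and 10.35, 12.02 and 12.88 in the healthy aortas, a difference of 4.57 on the log2 scale or 23.7-fold (SE 0.51, adjusted p = 2.85e-08). *Pgam2*, the muscle phosphoglycerate mutase, read 15.48, 16.11 and 14.57 in muscle and 8.34, 9.71 and 11.72 in aorta, a 44.02-fold difference (log2 5.46, SE 1.09, adjusted p = 0.000193). *Eno3*, the muscle enolase, was 41.9-fold higher in muscle (log2 5.39, SE 1.004, adjusted p = 8.58e-05), and *Pygm*, muscle glycogen phosphorylase, was 37.2-fold higher (log2 5.22, SE 0.59, adjusted p = 2.79e-08). For these 4 genes every muscle value lay above every aorta value, while the 3 aorta values of a gene were widely scattered.

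Smaller differences in the same direction were called for *Gys1*, glycogen synthase of muscle and most other tissues, at log2 1.55 (SE 0.33, adjusted p = 0.000391), and for *Fbp2*, the muscle fructose bisphosphatase, at log2 1.65 (SE 0.38, adjusted p = 0.000859). *Gpd1*, cytosolic glycerol-3-phosphate dehydrogenase, went the other way. It read 12.41, 12.74 and 10.698 in muscle and 13.14, 15.41 and 15.05 in aorta, 5.99-fold higher in aorta (log2 -2.58, SE 0.58, adjusted p = 0.000805). *Hk2*, the insulin-responsive hexokinase, was at 12.12 ± 0.32 in muscle and 11.83 ± 1.19 in aorta (SD, n = 3), a difference of 0.29 with an adjusted p of 0.636. *Ldha* and *Ldhb*, the lactate dehydrogenase subunits that predominate in fast muscle and in heart, were not called either. In all, 7 of 10 members were called, 6 higher in muscle and 1 higher in aorta, and their groups did not overlap. Over all 14131 genes tested the share called was 34.9%. The share whose groups did not overlap is not given, so the lack of overlap in these 7 members cannot be set against it.

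Markers fixed for other cell types moved with these tissue differences. All 12 skeletal muscle markers were called higher in healthy muscle (median log2 6.26), and all 6 adipocyte markers and all 3 brown adipocyte markers were called lower there (medians -2.66 and -7.08). *Ucp1*, the brown fat uncoupling protein, lay between 15.04 and 17.57 on the 21 aorta arrays, against 6.83 to 9.03 in muscle. The arrays labelled aorta thus carried RNA of fat, and in whole tissue fewer cells of a type and less RNA per cell cannot be told apart. The library labelled healthy aorta 1 went against its label in that its smooth muscle markers, the defining genes of the vessel wall, averaged 9.85, inside the range of the muscle arrays (9.49 to 10.87), where the other 20 aortas ran from 12.43 to 14.67. *Myh11*, smooth muscle myosin, was 9.24 in it and 12.68 or higher in the others. Its other readings were unlike muscle: skeletal muscle markers averaged 9.16, against 15.66 to 16.32 on the muscle arrays, and *Ucp1* read 15.04. Without healthy aorta 1 the same 7 members were called between the healthy tissues. With slide as a fixed block none of the 7 calls was made, and a single slide carried both tissues.

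**Figure D1:**
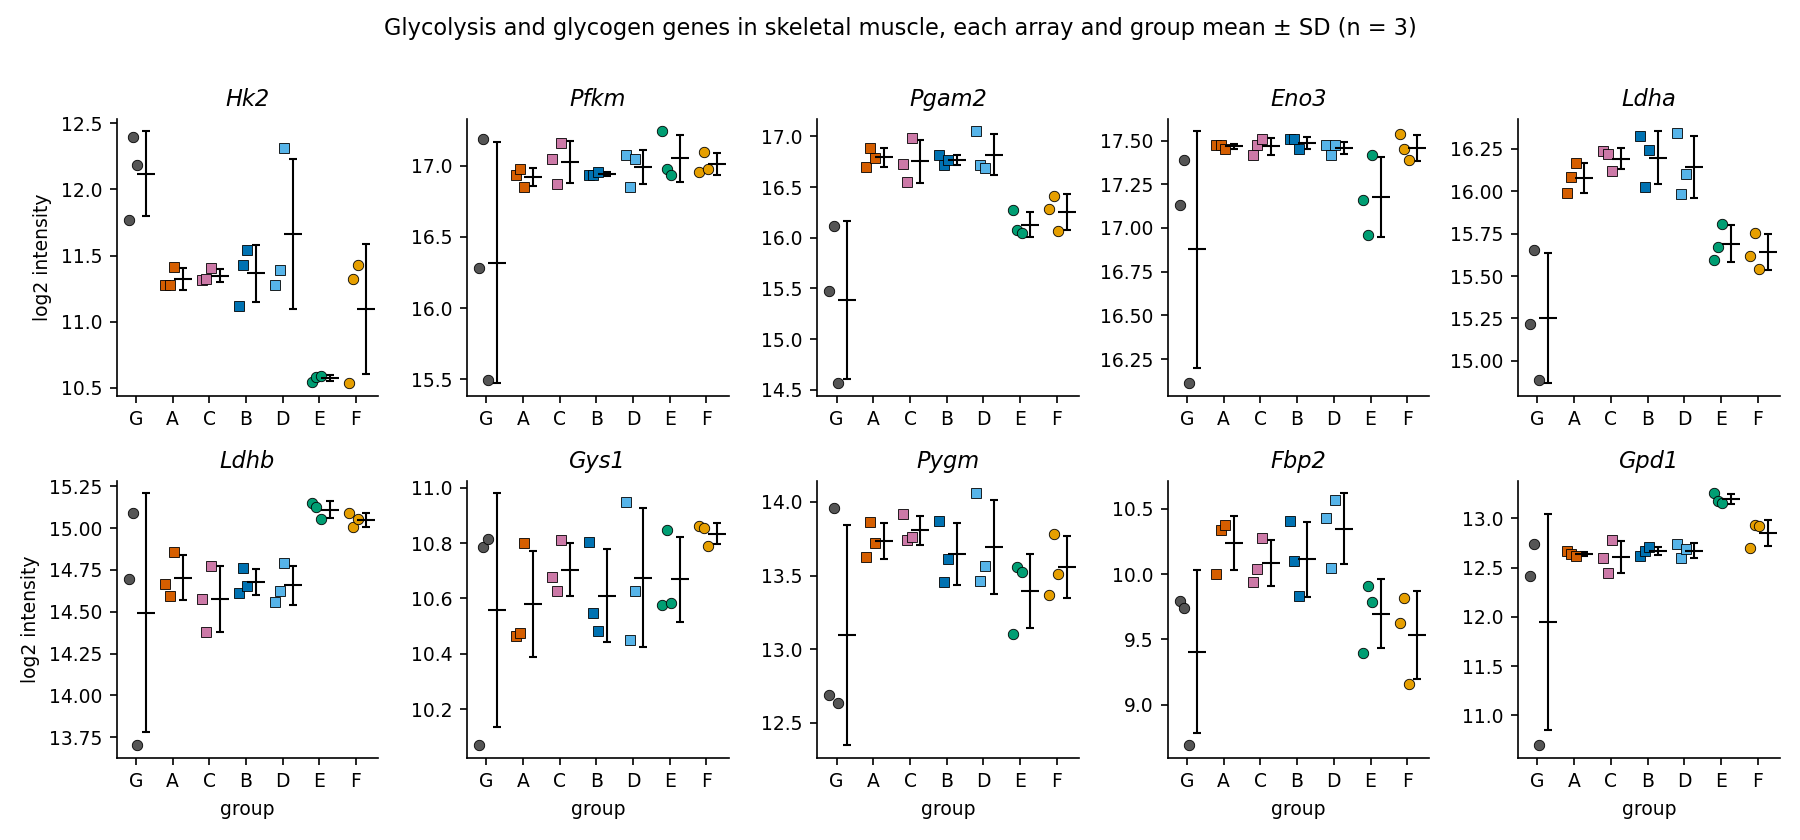
Log2 intensity (vertical axes) of members on each of the 21 skeletal muscle arrays, by group (G healthy, A diabetic, C macroangiopathy, B SHENQI, D yangyinyiqi, E huoxue, F rosiglitazone). Circles are arrays on slides 1, 2 and 7 and squares arrays on slides 4, 5 and 6, and the bar beside each group is the mean ± SD of 3 arrays. The squares of *Ldha* and *Pgam2* all lie above their circles.

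In muscle, diabetic mice had more *Pgam2*, *Ldha*, *Eno3* and *Fbp2* RNA than healthy mice and less *Hk2*. *Pgam2* rose 2.66-fold, the largest change among the members (log2 1.41, SE 0.25, adjusted p = 0.000605). Its readings were 15.48, 16.11 and 14.57 in the healthy muscles against 16.70, 16.89 and 16.79 in the diabetic muscles. All 3 diabetic values lay above the highest healthy value, and the healthy values were the more scattered. *Ldha* read 15.22, 15.65 and 14.89 in healthy and 15.99, 16.09 and 16.17 in diabetic muscles, 1.78-fold higher (log2 0.83, SE 0.14, adjusted p = 0.000536). *Hk2* read 11.77, 12.40 and 12.19 in healthy and 11.28, 11.28 and 11.42 in diabetic muscles and fell 1.74-fold (log2 -0.80, SE 0.24, adjusted p = 0.0229). Again the groups did not overlap, and *Hk2* was the one called member that fell.

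*Eno3* read 17.13, 17.39 and 16.11 in healthy muscle and 17.45 to 17.48 in the 3 diabetic muscles (log2 0.59, SE 0.21, adjusted p = 0.0434). *Fbp2* read 9.79, 9.74 and 8.69 in healthy muscle and 9.998, 10.34 and 10.38 in diabetic muscle (log2 0.83, SE 0.26, adjusted p = 0.0235). In both genes the third healthy muscle, which shared its slide with aorta arrays, was the lowest. It was also the lowest healthy muscle for *Pfkm*, *Pgam2*, *Ldha*, *Ldhb*, *Pygm* and *Gpd1*, but not for *Hk2* or *Gys1*. Its skeletal muscle markers averaged 15.66, the lowest of the 21 muscle arrays. Without this array *Eno3* differed by 0.21 (adjusted p = 0.119) and *Fbp2* by 0.47 (adjusted p = 0.101). *Pgam2* then differed by 0.999 and *Ldha* by 0.64, and both stayed past the threshold. *Pfkm* (0.60), *Pygm* (0.64) and *Gpd1* (0.69) had differences of like size with adjusted p of 0.0894, 0.0782 and 0.118, and *Gys1* (0.02) and *Ldhb* (0.21) had smaller ones. *Eno3* and *Pfkm* had median ranks of 19 and 35 among 41174 probes on the muscle arrays. Quantile normalisation sets values by rank, so little room lay above them, and their small spreads and differences may be compressed. Thus 5 of 10 members were called, 4 higher and 1 lower, where 28.6% of 13881 genes were called. The members' median was 0.62 and that of all genes 0.02. The groups of 5 members did not overlap, as was so for 32.2% of all genes. A fit to only the 6 arrays compared called 0 members, with *Ldha* at an adjusted p of 0.0723 and *Pgam2* at 0.0942. In the fit to 21 arrays the count was 8 without healthy muscle 2, 3 without healthy muscle 3, and 3, 2 and 3 without diabetic muscle 1, 2 and 3. The share of all genes called in each of these fits is not given. At an unadjusted p under 0.05, 8 members passed, against 39.8% of all genes.

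Macroangiopathy muscle was then compared with the same 3 healthy muscles, so this comparison and the preceding one share arrays. *Pgam2*, at 16.73, 16.55 and 16.98, was 2.58-fold higher than in healthy muscle (log2 1.37, SE 0.25, adjusted p = 0.000809). *Ldha*, at 16.23, 16.22 and 16.12, was 1.92-fold higher (log2 0.94, SE 0.14, adjusted p = 0.000211), and *Eno3* was 1.504-fold higher (log2 0.59, SE 0.21, adjusted p = 0.0450). *Hk2*, at 11.32, 11.32 and 11.40, fell 1.71-fold (log2 -0.77, SE 0.24, adjusted p = 0.0274). Calls were thus made for 4 members, 3 higher and 1 lower, where 27% of 13836 genes were called, and the members' median was 0.67. *Pfkm* (0.71, adjusted p = 0.0502), *Pygm* (0.71, adjusted p = 0.0540) and *Fbp2* (0.68, adjusted p = 0.0598) narrowly missed the threshold. The groups of 5 members did not overlap, against 31.3% of all genes, and a fit to only these 6 arrays called 0 members (*Ldha* adjusted p = 0.0607, *Pgam2* 0.116). Without the third healthy muscle only *Ldha* (0.76) and *Pgam2* (0.96) were called. The count was also 2 without any one macroangiopathy muscle, and 7 without healthy muscle 2.

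**Figure D2:**
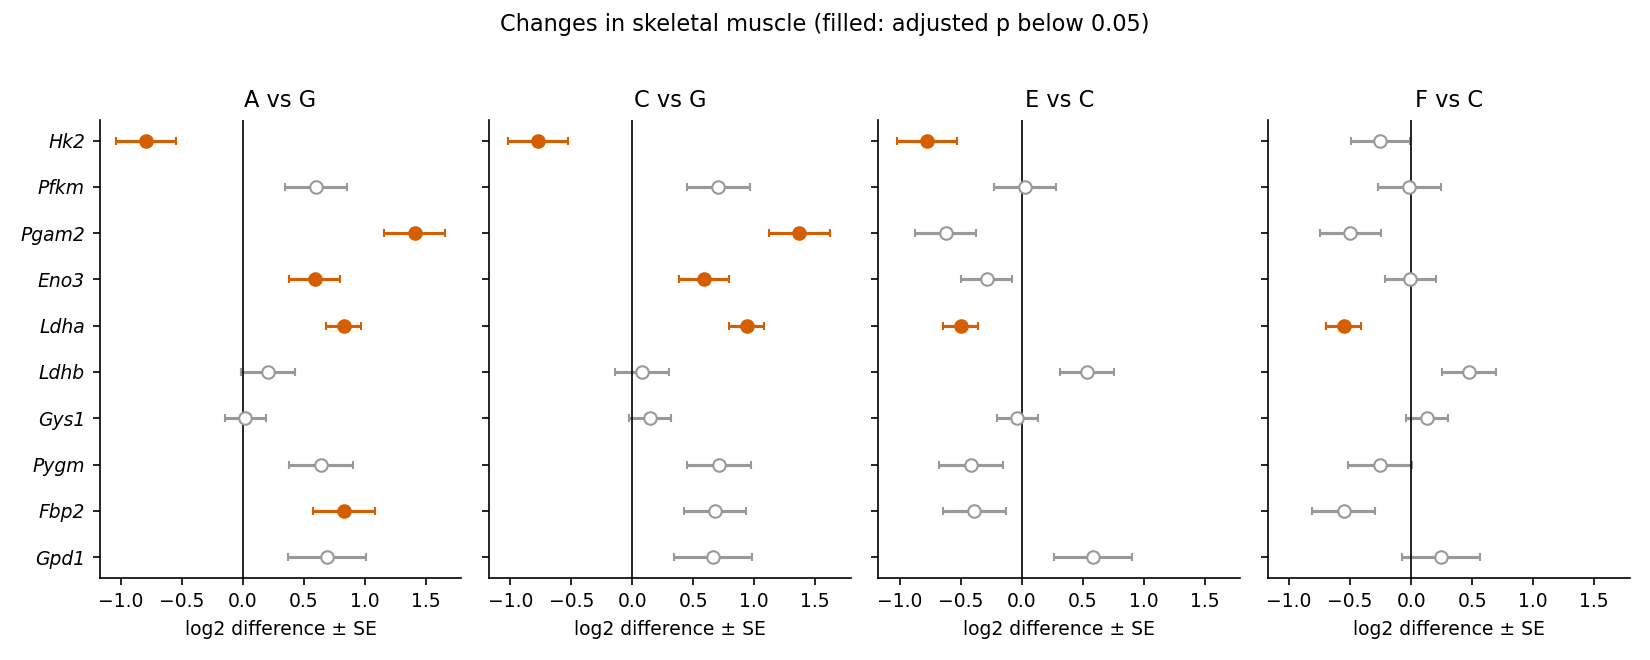
Log2 difference ± SE (horizontal axes) of the 10 members in skeletal muscle for diabetic against healthy (A vs G), macroangiopathy against healthy (C vs G), huoxue against macroangiopathy (E vs C) and rosiglitazone against macroangiopathy (F vs C), from fits to 21 arrays with 3 per group. Filled points have an adjusted p under 0.05, and *Ldha* is the one member filled in all 4 panels.

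The groups of muscle arrays were divided between slides. Diabetic, macroangiopathy, SHENQI and yangyinyiqi muscles lay on slides 4, 5 and 6, and healthy, huoxue and rosiglitazone muscles on slides 1, 2 and 7, so slide and group cannot be told apart in these comparisons. *Ldha* was 14.89 to 15.81 on the 9 arrays of the one set and 15.98 to 16.35 on the 12 arrays of the other, and *Pgam2* was 14.57 to 16.41 and 16.55 to 17.05. The other 8 members overlapped between the sets. With slide as a random block *Ldha* and *Pgam2* were the 2 members still called in each of these comparisons with healthy muscle. Skeletal muscle markers averaged 15.66 to 16.21 per array in healthy, 16.10 to 16.22 in diabetic and 16.14 to 16.24 in macroangiopathy muscle, and 2 of 12 were called higher in diabetic muscle. The 12 were *Acta1*, *Ckm*, *Ttn*, *Neb*, *Tnnt3*, *Tnnc2*, *Mylpf*, *Myh4*, *Myh1*, *Actn3*, *Pvalb* and *Atp2a1*. In diabetic against healthy muscle *Acta1* (-0.09) and *Ckm* (-0.04) were not called and *Myh4* was (0.34, adjusted p = 0.0172). *Acta1* read 17.70 to 17.76 in healthy and 17.60 to 17.67 in diabetic muscle, above *Eno3*. Little room thus lay above it on the quantile-normalised scale, and its lack of a call decides nothing. Whether the mean of this list follows the amount of muscle RNA within muscle was not tested. All 6 slow fibre markers were called higher in diabetic muscle (median 0.64) and all 3 red cell markers lower (median -0.98). In macroangiopathy muscle 2 of 6 slow fibre markers were called higher and 1 of 3 red cell markers lower, and 2 of 3 macrophage markers were called lower in both comparisons. Over the 21 muscle arrays the skeletal muscle marker mean had a Pearson's r of 0.862 with *Ldha* (rho 0.862), 0.886 with *Pygm* (rho 0.865), 0.808 with *Pgam2* (rho 0.805), 0.732 with *Eno3* (rho 0.502) and 0.725 with *Fbp2* (rho 0.621). Adjusted permutation p over the 40 relations computed was 5.71e-05, 5.71e-05, 0.00015, 0.000509 and 0.000733 for r and 5.71e-05, 5.71e-05, 5.71e-05, 0.0599 and 0.00969 for rho. Without the 2 arrays farthest from the median r was 0.803, 0.809, 0.766, 0.579 and 0.496, and within groups it was 0.932, 0.934, 0.754, 0.644 and 0.580. The p-values belong to r and rho over all 21 arrays, which fall into groups and slide sets, and none is given within groups. For the other members r over the 21 arrays was lower. It was 0.572 for *Pfkm* (rho 0.249), 0.312 for *Gpd1* (rho -0.086) and 0.199 for *Gys1* (rho 0.149). For *Hk2* it was 0.167 (rho 0.084) and for *Ldhb* 0.07 (rho -0.388). Of these only the r of *Pfkm* had an adjusted permutation p under 0.05 (0.0257, and 0.58 for its rho). How far these lists account for the members' changes was not tested.

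The 2 *Ldha* probes gave different pictures. Probe 1 mapped to chr7:54109426-54110355 (mm9), a stretch longer than the probe and so across a splice junction, and probe 2 to chr7:54110889-54110948. Probe 2 read 15.13, 15.49 and 15.41 in healthy muscle, 16.50, 16.44 and 16.59 in diabetic muscle and 16.75, 16.85 and 16.56 in macroangiopathy muscle, differences from healthy of 1.17 (SE 0.13, adjusted p = 1.15e-05) and 1.38 (SE 0.13, adjusted p = 2.19e-06). Probe 1 read 15.31, 15.82 and 14.36 in healthy muscle and 15.48, 15.73 and 15.74 in diabetic muscle, a difference of 0.49 (adjusted p = 0.130). In macroangiopathy muscle probe 1 differed from healthy by 0.50 (adjusted p = 0.129). The call for *Ldha* therefore came from the probe downstream. Over all muscle groups probe 2 was 15.02 to 15.49 on slides 1, 2 and 7 and 16.37 to 16.89 on slides 4, 5 and 6, with no overlap, whereas probe 1 ranges overlapped (14.36 to 16.19 and 15.46 to 15.96). Of the *Gpd1* probes, the first passed in both comparisons (0.76, adjusted p = 0.0432, and 0.77, adjusted p = 0.0432) and the second in neither (0.62 and 0.55).

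**Figure D3:**
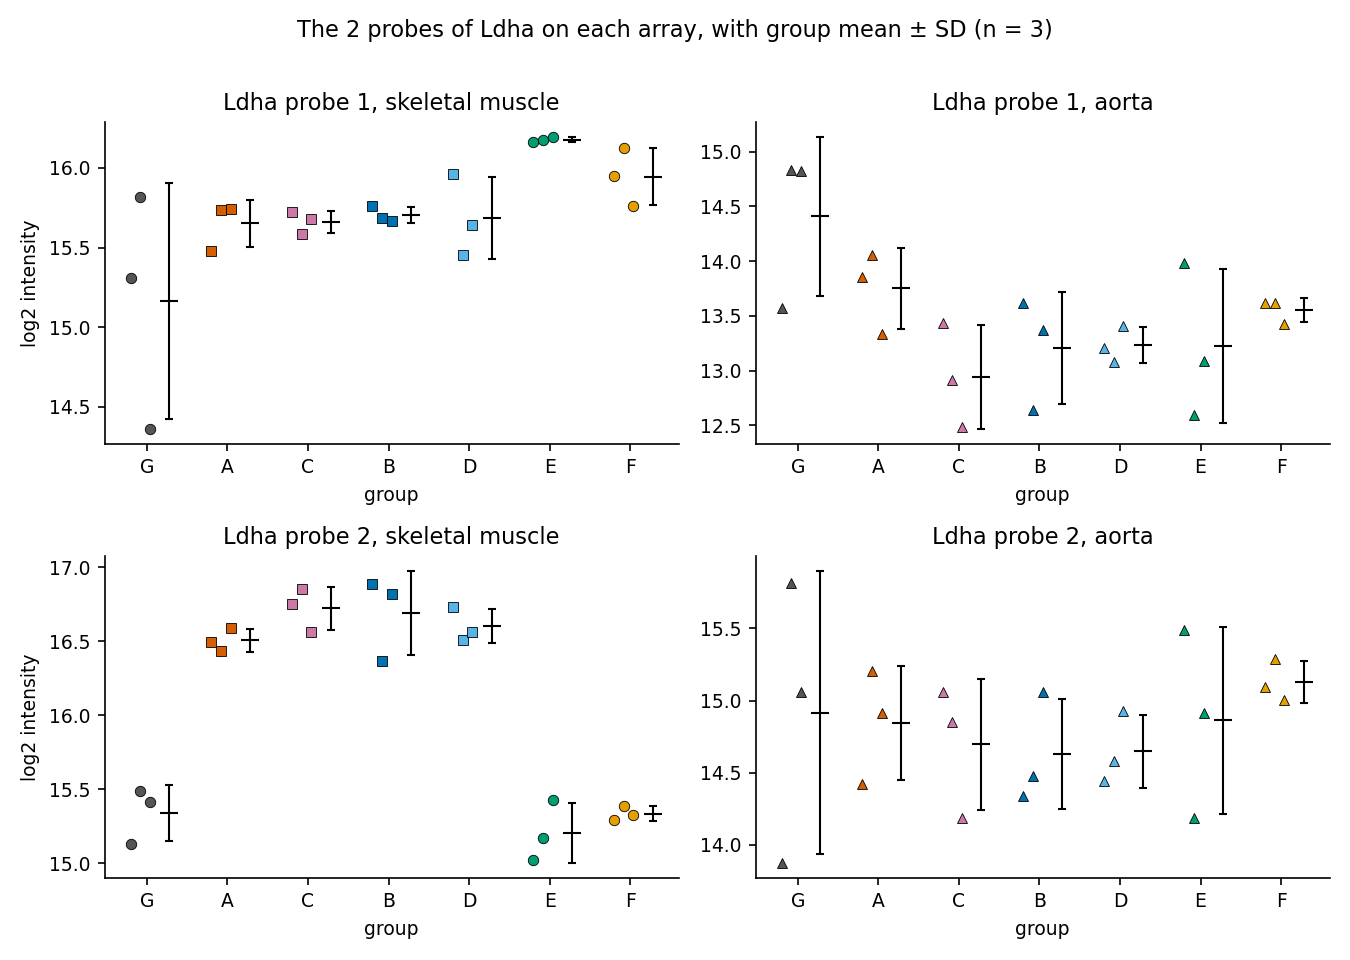
Log2 intensity (vertical axes) of the 2 *Ldha* probes on each array by group (letters as for the other plots). Circles are muscle arrays on slides 1, 2 and 7, squares muscle arrays on slides 4, 5 and 6 and triangles aorta arrays, with bars for mean ± SD of 3. In muscle, probe 2 stands at 16.37 or above in groups A, C, B and D and at 15.49 or below in G, E and F, while probe 1 overlaps.

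The treated groups were compared with macroangiopathy muscle, all sharing its 3 arrays. Huoxue muscle read lower for *Hk2* and for the mean of the 2 *Ldha* probes. All 3 huoxue arrays lay on slide 1, where the rosiglitazone array also read low for *Hk2* (10.53). *Hk2* read 10.54, 10.58 and 10.59 with huoxue, below all 3 macroangiopathy values, and fell 1.71-fold (log2 -0.78, SE 0.24, adjusted p = 0.0332). *Ldha* read 15.59, 15.67 and 15.81 and fell 1.41-fold (log2 -0.50, SE 0.14, adjusted p = 0.0213). By probe, however, *Ldha* probe 2 differed by -1.52 (SE 0.13, adjusted p = 1.93e-06) and probe 1 by 0.52 (adjusted p = 0.107), opposite signs. *Pgam2*, at 16.27, 16.08 and 16.04, differed by -0.62 (adjusted p = 0.0851), and *Ldhb*, at 15.15, 15.13 and 15.05 against 14.58, 14.38 and 14.77, by 0.53 (adjusted p = 0.0972). Thus 2 of 10 members were called, both lower, where 20.8% of 13422 genes were called. For *Ldha* the call rests on the mean of 2 probes of opposite sign. The groups did not overlap in 7 members, and in 52.3% of all genes.

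In rosiglitazone against macroangiopathy muscle *Ldha* was the one member called. It read 15.62, 15.76 and 15.54 and fell 1.47-fold (log2 -0.55, SE 0.14, adjusted p = 0.0292), with probe 2 at -1.39 (adjusted p = 3.14e-05) and probe 1 at 0.28 (adjusted p = 0.467). *Hk2* read 10.53 on the rosiglitazone array of slide 1, beside the huoxue arrays of that slide, and 11.32 and 11.43 on the 2 arrays of slide 2, a mean difference of -0.25 (adjusted p = 0.576). *Ldhb* differed by 0.47 (adjusted p = 0.214) and *Fbp2* by -0.55 (adjusted p = 0.210). *Pgam2*, at 16.28, 16.41 and 16.07 against 16.73, 16.55 and 16.98, differed by -0.50 (adjusted p = 0.242). The groups of these 3 genes and of *Ldha* did not overlap, 4 members where 38.6% of all genes did not. Called were 1 of 10 members where 7.19% of 13559 genes were called. Skeletal muscle markers were called lower for 5 of 12 in huoxue and 2 of 12 in rosiglitazone muscle, and their part was not tested. Neither comparison kept a member with slide as a random block. The huoxue calls fell to 0 without the first or second macroangiopathy or huoxue muscle and to 1 without the third of either. The rosiglitazone call was lost without any one macroangiopathy muscle or without rosiglitazone muscle 1 or 3.

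Diabetic and macroangiopathy muscle shared no slide, the diabetic arrays lying on slide 4 and the macroangiopathy arrays on slides 5 and 6, and SHENQI arrays lay on both 4 and 5. Macroangiopathy minus diabetic differences ran from -0.15 to 0.13 over the members and 0 of 10 were called, also with slide as a fixed block, where 0% of 13702 genes were called and 3.56% passed an unadjusted p under 0.05. SHENQI minus macroangiopathy differences ran from -0.16 to 0.10 and yangyinyiqi minus macroangiopathy from -0.11 to 0.31, again with 0 members called and 0% of genes called in each (1.13% and 1.49% unadjusted). No member passed at an unadjusted p under 0.05 in these 3 comparisons. *Pgam2*, for example, read 16.82, 16.72 and 16.77 with SHENQI and 17.05, 16.72 and 16.69 with yangyinyiqi, and *Hk2* 11.12, 11.43 and 11.54 and 11.28, 11.39 and 12.31. Ordered by mean, 55 of the 60 pairs of neighbouring groups in muscle overlapped in their arrays. Neighbours in such an order lie close by construction, so this count does not test whether groups differ. The share over all genes was not computed.

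**Figure D4:**
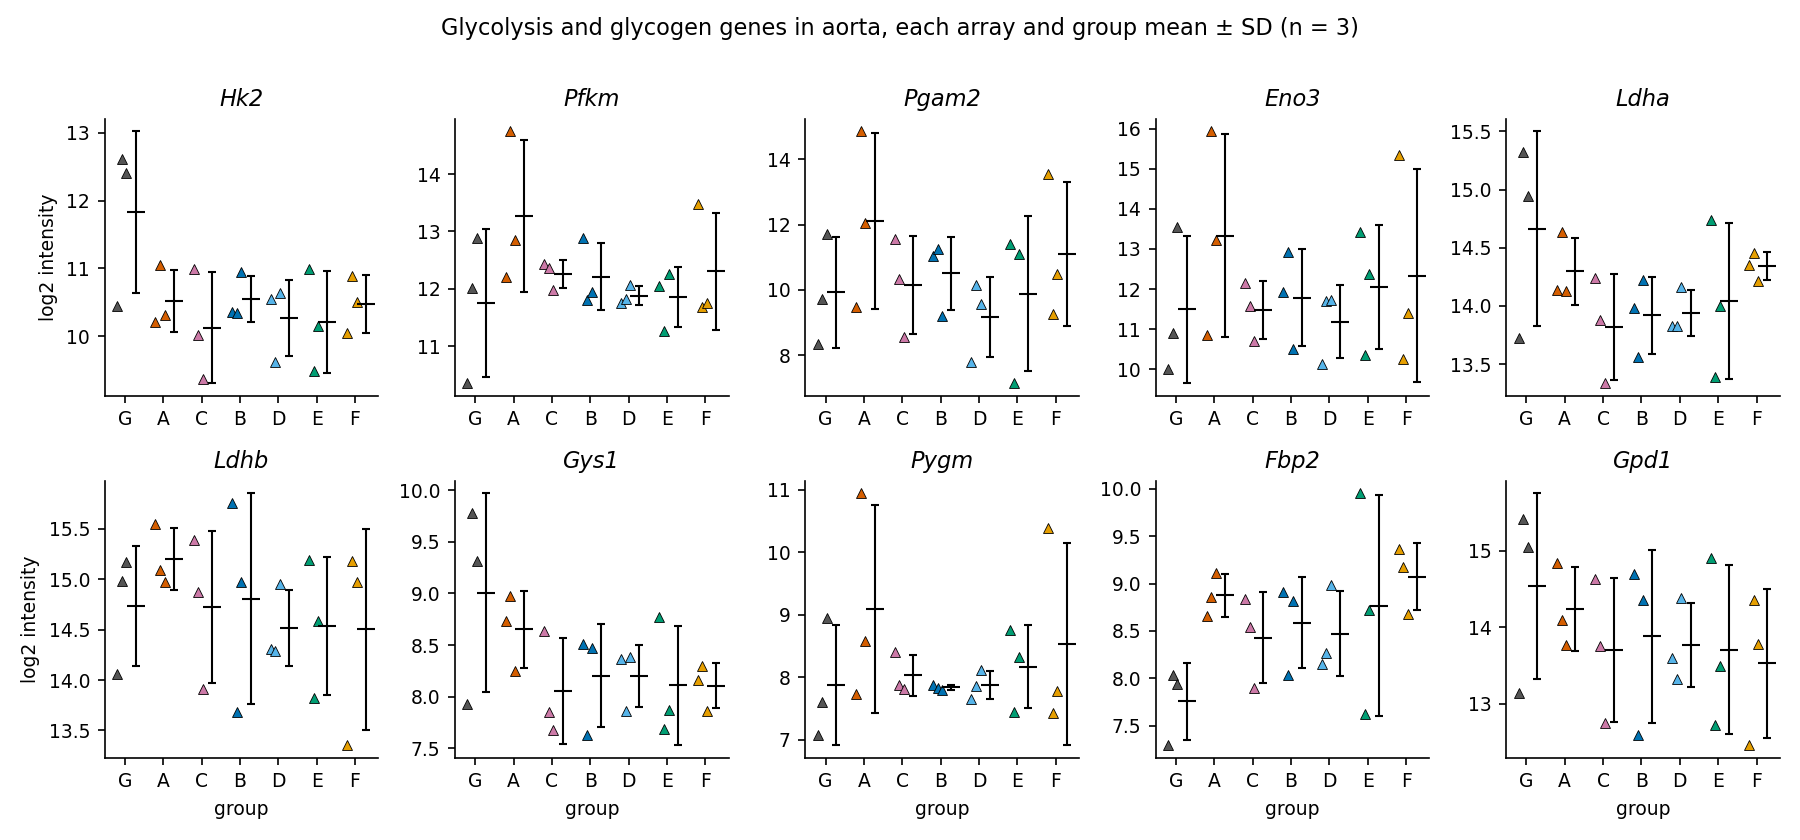
Log2 intensity (vertical axes) of members on each of the 21 aorta arrays by group (letters as for the other plots), one triangle per array and a bar for mean ± SD of 3. *Pgam2* spans 7.14 to 14.86 and *Eno3* 10.01 to 15.93, with wide spread within most groups.

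In aorta no member was called in any comparison. Against healthy aorta, diabetic aorta had *Hk2* at 10.21, 11.05 and 10.32 against 10.45, 12.61 and 12.41, a difference of -1.30 (adjusted p = 0.192). *Fbp2* was the one member whose groups did not overlap, at 8.66, 8.86 and 9.11 against 7.29, 8.04 and 7.94 (log2 1.12, adjusted p = 0.173), and *Pfkm* differed by 1.52 (adjusted p = 0.213). These 3 passed an unadjusted p under 0.05, as did 19.8% of all genes, where 4.22% of 14094 genes were called. The share of all genes whose groups did not overlap is not given for this comparison, so the lack of overlap in *Fbp2* cannot be set against it. On the one slide that held both groups, the diabetic array differed from the mean of the 2 healthy arrays by -1.23 in *Hk2*, 1.04 in *Fbp2* and 0.59 in *Pfkm*.

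Against the same healthy aortas, macroangiopathy aorta had *Hk2* at 10.997, 10.01 and 9.37 (log2 -1.70, adjusted p = 0.0712), *Gys1* at 8.64, 7.85 and 7.68 against 7.93, 9.78 and 9.31 (log2 -0.95, adjusted p = 0.176) and *Ldha* at 14.24, 13.88 and 13.34 against 13.72, 15.32 and 14.94 (log2 -0.84, adjusted p = 0.176). All 3 had unadjusted p under 0.05, as did 24.4% of genes, and 0 members were called where 6.77% of 15417 genes were. Healthy aorta 1, low in smooth muscle markers, was lowest of its group in each of these genes and overlapped the macroangiopathy arrays. Without it *Hk2* (-2.39, adjusted p = 0.0115), *Gys1* (-1.49, adjusted p = 0.0326) and *Ldha* (-1.32, adjusted p = 0.0355) were called, and *Hk2* was also called against diabetic aorta (-1.99, adjusted p = 0.0352). Without macroangiopathy aorta 1, *Hk2* alone was called (-2.13, adjusted p = 0.0482). By probe, *Ldha* probe 1 differed by -1.47 (SE 0.38, adjusted p = 0.0325) and probe 2 by -0.22 (adjusted p = 0.778).

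The remaining aorta comparisons were macroangiopathy against diabetic and SHENQI, yangyinyiqi, huoxue and rosiglitazone each against macroangiopathy. In all 5 the members called were 0, the members past an unadjusted p under 0.05 were 0, and 0% of genes were called. The unadjusted share of all genes was 1.38%, 1.15%, 0.301%, 0.711% and 3.03% in that order. All 60 pairs of neighbouring groups in the order of means overlapped in aorta. This count has the same limit as in muscle, and its share over all genes was not computed.

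Members varied across aorta arrays with the marker lists of other cell types. Skeletal muscle markers averaged 7.80 to 14.36 per aorta array (median 9.95, 12 genes), highest in diabetic aorta 2 (14.36) and rosiglitazone aorta 1 (12.89), and 15.66 to 16.32 in muscle. Diabetic aorta 2 and rosiglitazone aorta 1 also read highest of the aortas for *Eno3* (15.93 and 15.33), *Pgam2* (14.86 and 13.54), *Pygm* (10.94 and 10.39) and *Pfkm* (14.75 and 13.49). Over the 21 aortas, Pearson's r with the muscle marker mean was 0.957 for *Eno3* (Spearman's rho 0.904), 0.907 for *Pgam2* (rho 0.868), 0.912 for *Pygm* (rho 0.901) and 0.785 for *Pfkm* (rho 0.713). Without the 2 arrays farthest from the median, r was 0.915, 0.817, 0.847 and 0.530. Within groups, after subtraction of group means, r was 0.965, 0.931, 0.912 and 0.771. The permutation p was 1e-05 for *Eno3*, *Pgam2* and *Pygm*, the smallest the permutations could give, or 5.71e-05 adjusted over the 40 relations computed. The adjusted p was 2e-04 for the r of *Pfkm* and 0.00171 for its rho. No p is given for r within groups. When diabetic aorta 2 and rosiglitazone aorta 1 were left out, a choice made after the data were seen, 0 members were called in any aorta comparison.

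A second set of members varied with fat markers. Adipocyte markers averaged 11.75 to 14.54 per aorta array, with healthy aortas from 13.03 to 14.54 and macroangiopathy aortas from 12.32 to 13.69. With this mean, r was 0.872 for *Gpd1* (rho 0.890), 0.827 for *Hk2* (rho 0.827), 0.785 for *Gys1* (rho 0.829), 0.670 for *Ldha* (rho 0.639) and 0.700 for *Ldhb* (rho 0.803), and within groups 0.876, 0.822, 0.735, 0.700 and 0.810. Without the 2 farthest arrays it was 0.845, 0.859, 0.861, 0.827 and 0.604. Adjusted permutation p for r was 5.71e-05, 5.71e-05, 0.000178, 0.00294 and 0.00102 and for rho 5.71e-05, 0.00016, 1e-04, 0.0083 and 0.00016. *Hk2*, *Gys1* and *Ldha* are the members that were lower in macroangiopathy aorta at an unadjusted p under 0.05. Smooth muscle markers averaged 9.85 to 13.45 in healthy and 14.18 to 14.63 in macroangiopathy aorta, without overlap, and 1 of 6 was called higher. Red cell markers averaged 13.74 to 15.24 and 16.26 to 16.44, also without overlap, and all 3 were called higher (median 1.74). The part of these tissue differences in the members' values was not tested.

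**Figure D5:**
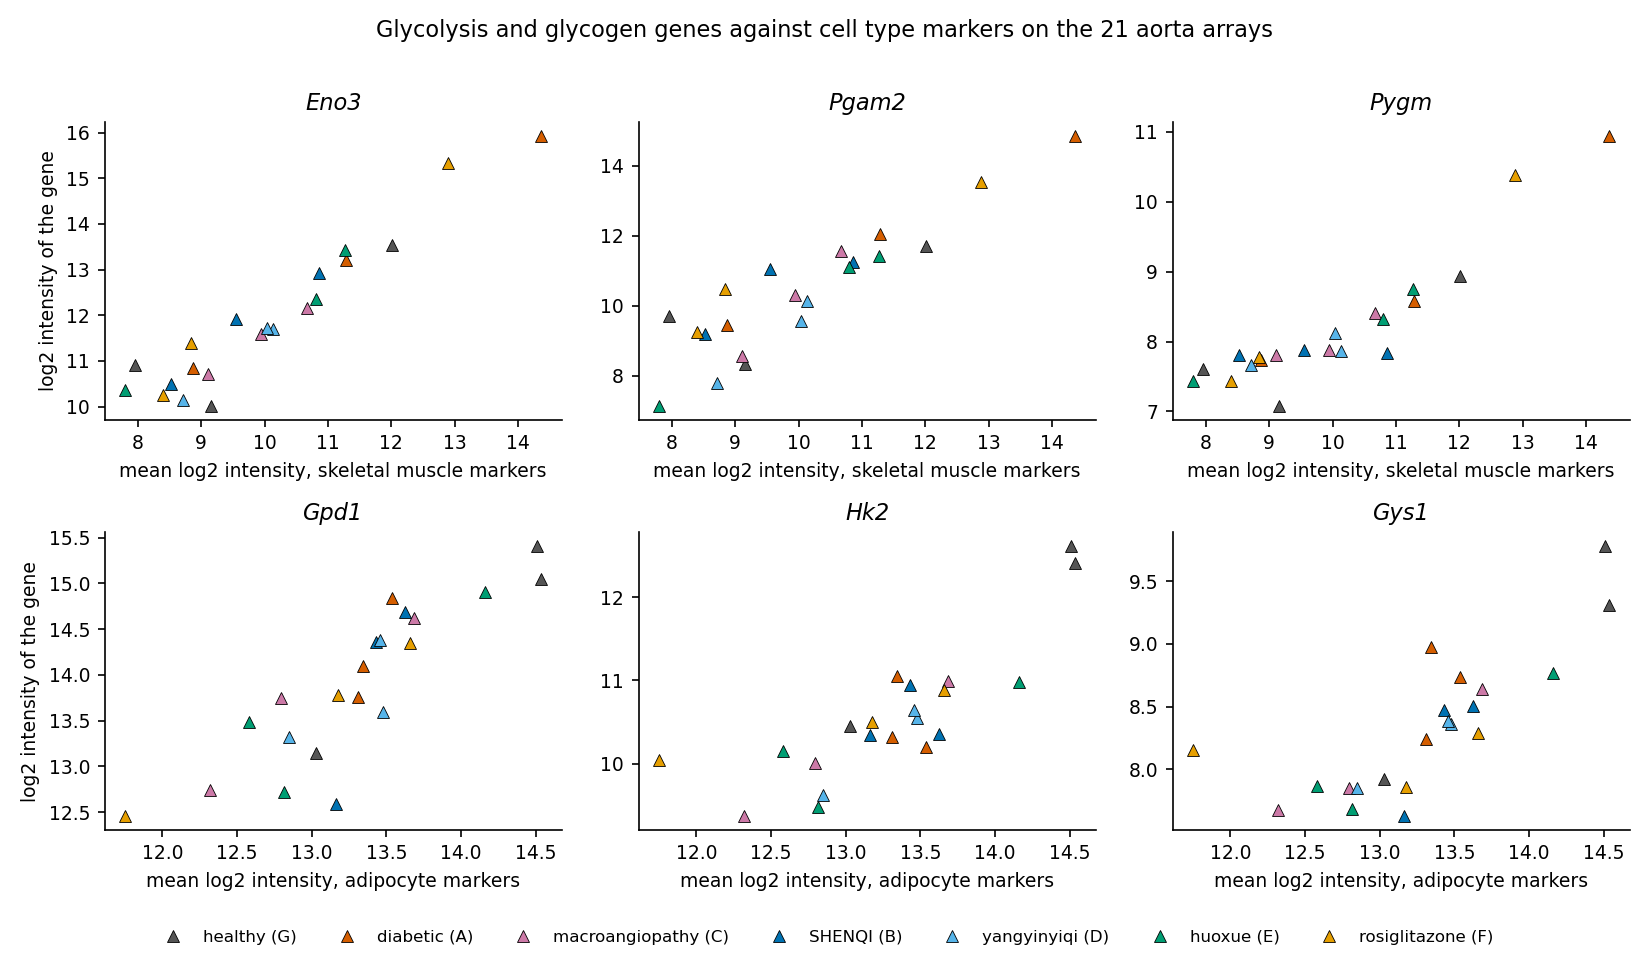
Log2 intensity of members (vertical axes) against the mean log2 intensity of a marker list (horizontal axes) on each of the 21 aorta arrays, one triangle per array. *Eno3* rises with skeletal muscle markers (Pearson's r 0.957) and *Gpd1* with adipocyte markers (r 0.872).

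Whether a member changed differently in the 2 tissues was tested with an interaction term over all 42 arrays. *Ldha* was called for macroangiopathy against healthy, where the muscle change exceeded the aorta change by 1.78 on the log2 scale (SE 0.41, adjusted p = 0.00995), muscle having gone from 15.25 ± 0.38 to 16.19 ± 0.06 and aorta from 14.66 ± 0.84 to 13.82 ± 0.46 (SD, n = 3). By probe the interaction was 1.97 for probe 1 (adjusted p = 0.0129) and 1.60 for probe 2 (adjusted p = 0.0365), and in muscle the group and the slide set cannot be told apart. Probe 1 differed by 0.50 in muscle and -1.47 in aorta, and probe 2 by 1.38 and -0.22. A fit to only the 12 arrays compared did not call the interaction (adjusted p = 0.2003). *Ldha* was 1 of 10 members where 4.5% of 15742 genes were called. For diabetic against healthy 0 members were called where 1.9% of genes were (smallest member adjusted p 0.137), for huoxue against macroangiopathy 0 where 0.203% were, and for rosiglitazone against macroangiopathy 0 where 0.0316% were. The other 3 interactions gave 0 members and 0% of genes. Without healthy aorta 1, *Gys1* was called too for macroangiopathy (1.64, adjusted p = 0.0121) and *Ldha* for diabetic mice (1.66, adjusted p = 0.00639).

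Beyond the members, 63 other genes of a listed glucose and glycogen pathway were on the array. In diabetic against healthy muscle 18 of 59 tested were called, 11 higher and 7 lower (median 0.04), close to the 28.6% of all genes. *Phkg1*, the catalytic subunit of muscle phosphorylase kinase, rose by 1.62 (SE 0.29, adjusted p = 0.000642), and *Tpi1*, triosephosphate isomerase, rose by 1.58 (adjusted p = 0.00328). *Ppp1r3c*, which targets protein phosphatase to glycogen, fell by 1.22 (adjusted p = 0.00166). By group, calls were made for 2 of 13 in upper glycolysis (1 higher), 3 of 7 in lower glycolysis (2 higher), 3 of 9 in lactate and pyruvate (all higher), 5 of 13 in glycogen synthesis (2 higher), 3 of 9 in glycogen breakdown (2 higher), 1 of 5 in gluconeogenesis (lower) and 1 of 3 in glycerol phosphate (higher). Macroangiopathy against healthy muscle gave 16 of 59 (11 higher, 5 lower), against 27% of all genes, with *Phkg1* at 1.76, *Tpi1* at 1.60 and *Pdk4*, a kinase that switches off pyruvate dehydrogenase, at -1.39 (adjusted p = 0.000354, 0.00303 and 0.0139).

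In huoxue against macroangiopathy muscle 7 of 57 were called, 3 higher and 4 lower, against 20.8% of all genes. *Phkg1* fell by 2.27 (SE 0.29, adjusted p = 7.63e-05), and the pyruvate dehydrogenase subunits *Pdhb* and *Pdha1* fell by 1.29 (adjusted p = 0.000158) and 0.39 (adjusted p = 0.00451). In rosiglitazone muscle 3 of 57 were called, against 7.19% of all genes, all lower: *Phkg1* (-1.39, adjusted p = 0.00866), *Pdhb* (-0.73, adjusted p = 0.0215) and *Epm2a*, the glycogen phosphatase laforin (-0.59, adjusted p = 0.0195). *Phkg1* had the largest called change of this list in each of the 4 muscle comparisons in which *Ldha* was called, all of which carry the slide split described above. No listed gene was called in the other muscle comparisons. In aorta 1 of 59 was called for diabetic mice (4.22% of all genes) and 4 of 61 for macroangiopathy mice (6.77% of all genes), among the latter *Pdk1* (-1.11, adjusted p = 0.0356), *Nhlrc1* (0.85, adjusted p = 0.0316) and *Stbd1* (-0.53, adjusted p = 0.00635). *Stbd1*, a glycogen-binding protein, was the 1 called for diabetic aorta (-0.53, adjusted p = 0.00766). Between healthy tissues 40 of 60 were called, 21 higher and 19 lower in muscle, against 34.9% of all genes, with *Slc16a3*, a lactate exporter, 4.64 higher in muscle, *Ppp1r3a*, the muscle glycogen-targeting subunit, 4.28 higher in muscle, and *Gys2*, the liver form of glycogen synthase, at -4.18.

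The genes most like each member were taken over the 21 muscle arrays by Pearson's r, among 11772 genes. *Pgam2* was most like *Ldha* (r = 0.937), another member, and *Pfkm* was like *Myoz1* (r = 0.944), which encodes a Z-disc protein of fast fibres. *Gpd1* was most like *Hhatl* (r = 0.978) and *Ldhb* was most like *Kptn* (r = 0.958). Over the 21 aortas *Eno3* was most like *Ckm*, muscle creatine kinase (r = 0.973), *Pgam2* like *Eno3* (r = 0.946), and *Pfkm* like *Hrc* (r = 0.942) and *Ldb3* (r = 0.938). These arrays share slides and tissue makeup, so the values are descriptions.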

How the data were processed

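RNA from aorta and skeletal muscle was labelled with the one-colour Agilent kit and scanned on 42 arrays, with Feature Extraction 10.7.3.1 per the file headers. The deposited scanner files hold spot intensities, of which 34 lack mean signals, so median signal and median background intensity were used. The authors' own normalised log2 table served as an alternative. Here limma 3.58.1 (R 4.3.3) corrected background by normexp (offset 0), dropped control spots, quantile normalised over 42 arrays, left out irregular spots (0.189%) and averaged spots per probe and probes per symbol (41174 probes, 21186 genes). Each tissue was fitted with 7 group means on 21 arrays (14 residual degrees of freedom), and interactions and the tissue contrast with 14 means on 42 arrays. A gene was tested where one of its probes passed the scanner's background call in 3 of 3 arrays of either group. P-values were moderated by eBayes and adjusted by Benjamini-Hochberg over all genes tested. Precision is limited by the number of arrays. All 10 members were named, with the 3 largest called changes of a fixed pathway list and the 2 genes most alike. Members and lists were chosen with earlier results of these data known. Alternatives covered background, summary, filter, arrays fitted, slide and replicate blocks and omitted arrays. The fits were also run on simulated data, drawn independently for each gene and array without slide effects. That run therefore does not bear on the slide split of the muscle arrays.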

Additional observations from a re-analysis of the deposited data

Results flagged for a closer look

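One result stood out because the same contrast differed between the tissues. For *Ldha*, macroangiopathy against healthy, the change in skeletal muscle minus the change in aorta was 1.78 on the log2 scale (SE 0.41, adjusted p = 0.00995 by limma's interaction term). Muscle rose by 0.94 and aorta differed by -0.84, which was not called, and by probe the interaction was 1.97 and 1.60. The probes differed in where they changed. By limma, probe 1 differed by 0.50 in muscle (adjusted p = 0.129) and -1.47 in aorta (adjusted p = 0.0325). Probe 2 differed by 1.38 in muscle (adjusted p = 2.19e-06) and -0.22 in aorta (adjusted p = 0.778). In muscle the group and the slide set cannot be told apart. For the interaction, a fit to only the 12 arrays compared gave an adjusted p of 0.2003. Groups of 3 arrays were too small for a search for single outlying samples.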

How the results depend on the processing

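Among called members, *Ldha* reversed its direction with probe 1 alone, an alternative chosen after its values were seen, at 0.52 for huoxue and 0.28 for rosiglitazone against macroangiopathy muscle. No other called member changed sign under any alternative run. Of 437 alternative counts of called members 392 stayed within 1.5 times the count reported and 45 did not, and of 369 alternative values for called members 283 stayed past the threshold in the same direction, 84 missed it and 2 reversed. When Agilent's processed signal was used, scaled by its 75th percentile, 0 members were called for huoxue and 0 for rosiglitazone muscle; the median of all genes then moved from 0.02 to 0.17 for diabetic and to 0.13 for macroangiopathy against healthy muscle. With no filter 1 member was called for huoxue. Fits to only the arrays compared called 0 members for diabetic and 0 for macroangiopathy against healthy muscle, 6 for huoxue, 2 for rosiglitazone, 4 between healthy tissues and 0 for the macroangiopathy interaction. Fits to 12 arrays with a tissue term called 1 member (*Fbp2*, 0.98, adjusted p = 0.0269) for diabetic mice and 0 for macroangiopathy, huoxue and rosiglitazone mice. Slide as a random block left 2 members in each comparison with healthy muscle and 0 for huoxue and rosiglitazone, and slide as a fixed block left 0 between healthy tissues. The cause was not tested in any of these cases. Shares of all genes called are not given for the alternatives and omitted arrays, here or in the results. These counts therefore do not show whether the members differ from genes at large.

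Leaving out each array in turn gave 2 to 8 called members for diabetic and 2 to 7 for macroangiopathy against healthy muscle, 0 to 1 for huoxue and 0 to 1 for rosiglitazone muscle, 0 to 1 for diabetic and 0 to 3 for macroangiopathy against healthy aorta, 7 to 8 between healthy tissues, 0 to 1 for the diabetic and 1 to 2 for the macroangiopathy interaction. In the other comparisons it gave 0 throughout. The highest muscle counts came without healthy muscle 2 (8 and 7) and the lowest without diabetic muscle 2 (2), and without healthy muscle 3 or any one macroangiopathy muscle (2). Replicate numbers were not taken to pair the samples, since in no comparison did all 3 same-numbered pairs correlate above 0.1, and whether numbers mark the same mouse in both tissues is not stated. With the replicate number as a block, 4 members were called for diabetic and 3 for macroangiopathy against healthy muscle, where *Eno3* missed (adjusted p = 0.0543 and 0.0564), and the counts for huoxue (2), rosiglitazone (1), healthy tissues (7), the macroangiopathy interaction (1) and the rest (0) were as reported. All 12 member probes were well above background, and no comparison of the limits on precision was made.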
